A study of Homo sapiens with 8 samples.

Results

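The genes described here are 10 ligands of the CXC and CC chemokine families (CXCL1, CXCL2, CXCL3, CXCL5, CXCL6, CXCL8, CXCL16, CCL2, CCL5 and CCL20), taken by gene symbol from an RNA-Seq table of 17649 genes. All 10 symbols had a row. RNA was sequenced from MDA-MB-231 cells, an established estrogen receptor–negative human breast cancer cell line, in 4 control cultures that received PBS and 4 cultures that received 1 μM Nε-carboxymethyllysine (CML, written NCML in the titles) for 48 hours. CML is an advanced glycation end product, formed from lysine by reaction with sugars, and all 8 cultures were kept at 5 mM glucose. The comparison asks which transcripts differ after exposure of these cells to CML. A single cell line was used, so the values describe that line alone.

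The libraries held between 16161801 and 18954731 estimated reads, and 1 read was worth between 0.0535 and 0.0622 CPM (reads scaled by the authors to a common library size). The labelled cell line could be checked against its markers. The mesenchymal filament gene VIM averaged 4109 CPM, the receptor kinase AXL 1206 CPM, the surface glycoprotein CD44 850 CPM and the keratin KRT18 334 CPM, whereas the epithelial cadherin CDH1 stood at 0.654 CPM and the progesterone receptor PGR at 0.021 CPM. The estrogen receptor gene ESR1 was not analysed here. Of the markers of other cells that can secrete chemokines, the pan-leukocyte gene PTPRC was at 0.377 CPM, the monocyte genes CD14 and LYZ at 1.14 and 0.813 CPM, the fibroblast collagen COL1A2 at 0.111 CPM and the endothelial gene VWF at 0.415 CPM. The most abundant leukocyte marker was CD68, a lysosomal gene that many cultured cells express, at 169 CPM. The 4 measured leukocyte markers summed to between 162 and 183 CPM in the controls and between 155 and 175 CPM with CML, and the 6 fibroblast and endothelial markers, led by the collagen COL1A1 at 10.8 CPM with PDGFRB at 4.10, PECAM1 at 3.21 and DCN at 0.015 CPM, to between 17.4 and 19.2 and between 16.9 and 21.4 CPM. None of these markers passed the test described below, and CD3E and CD79A were not analysed here.

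Control replicate 4 and CML replicate 4 stood apart from the other libraries. On the first principal component, which held 27.0% of the variance, they scored 109 and 87.0. Control replicate 1 lay at the other end, at −101, and the remaining libraries scored between −33.8 and −7.07. Across genes, the deviation of these libraries from the mean fell with the GC content of the transcript (Spearman's rho −0.531 and −0.527), while it rose with GC content in control replicate 1 (0.503). Each group held one of the 2 replicate 4 libraries, while no CML library scored near control replicate 1 (the lowest was CML replicate 3, at −25.7). The fold changes and calls of the ligands, and the calls in the other gene lists, are therefore also given without both replicate 4 libraries. Control replicate 1 stays in that fit. Levels, ratios and profile distances are given over all 8 libraries.

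Chemokines are small secreted proteins that bind G protein–coupled receptors and direct the migration of leukocytes. CXCL1, CXCL2, CXCL3, CXCL5, CXCL6 and CXCL8 (interleukin-8) carry a Glu-Leu-Arg motif ahead of their cysteines, act through CXCR1 or CXCR2, attract neutrophils and promote the growth of blood vessels. Their genes lie close together on chromosome 4, and inflammatory stimuli are known to switch them on through NF-κB, with AP-1 and C/EBP proteins contributing at CXCL8. CCL2 attracts monocytes, CCL5 T cells and monocytes, and CCL20 dendritic cells and lymphocytes that carry CCR6, while CXCL16 is made as a membrane protein that is cut to release the ligand of CXCR6. In breast cancer cells of the basal type such as MDA-MB-231, secretion of CXCL8 and CXCL1 is well known.

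The 6 neutrophil-attracting ligands lie within 358.6 kb of GRCh38 chromosome 4, chr4:73740569-74099195, from the start of CXCL8 to the end of CXCL2. RefSeq places 9 protein-coding genes in this stretch, and the other 3 (PF4V1, PF4 and PPBP) were not analysed here. Counted from the start of CXCL8, CXCL6 begins at 96.1 kb, CXCL1 at 128.8 kb, CXCL5 at 255.1 kb, CXCL3 at 296.0 kb and CXCL2 at 356.5 kb. CXCL6 and CXCL5, the members with 0 or few reads, lie between CXCL8 and CXCL1 and between CXCL1 and CXCL3, while no other protein-coding gene lies between CXCL3 and CXCL2.

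**Figure D1:**
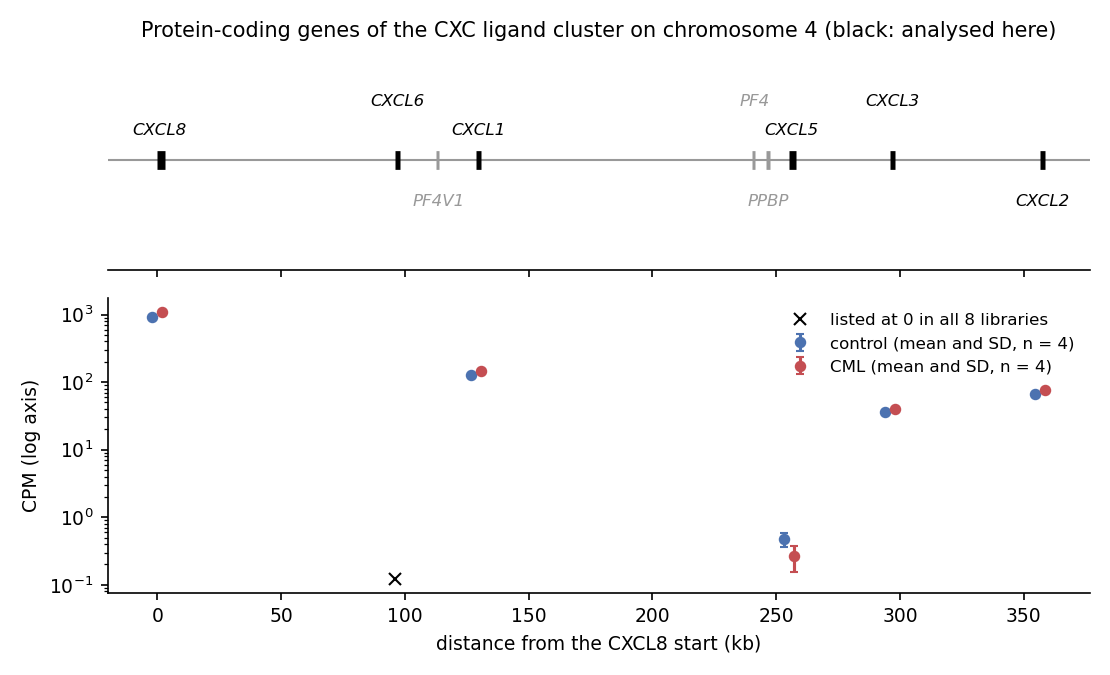
The upper row shows the protein-coding genes of the cluster at their distance in kb from the start of CXCL8, in black where analysed here and in grey otherwise. The lower panel shows the mean level of each ligand in CPM on a log axis, with SD bars that are mostly smaller than the points (control in blue, CML in red, n = 4 each), and CXCL6, listed at 0 in every library, is drawn as a cross below the other values.

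RefSeq promoter sequences (GRCh38.p14, the 250 bases before the start) were held for 7 of the 10 ligands. They are printed for the 6 cluster genes because the genes with many reads and those with few can be compared base by base around the NF-κB site. Each line is a window of 60 bases on the strand of its gene, 5′ to 3′. Capitals mark the NF-κB match in the first 5 genes and the 9 letters it shares with CXCL8 in the last. The windows are chr4:73869290-73869349 on the plus strand for CXCL1, chr4:74099238-74099297 on the minus strand for CXCL2, chr4:74038733-74038792 on the minus strand for CXCL3, chr4:73998733-73998792 on the minus strand for CXCL5, chr4:73836564-73836623 on the plus strand for CXCL6 and chr4:73740453-73740512 on the plus strand for CXCL8.
CXCL1: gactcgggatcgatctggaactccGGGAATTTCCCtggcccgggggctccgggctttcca
CXCL2: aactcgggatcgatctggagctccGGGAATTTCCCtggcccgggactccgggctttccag
CXCL3: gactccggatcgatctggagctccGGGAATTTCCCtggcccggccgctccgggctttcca
CXCL5: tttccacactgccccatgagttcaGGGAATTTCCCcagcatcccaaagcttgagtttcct
CXCL6: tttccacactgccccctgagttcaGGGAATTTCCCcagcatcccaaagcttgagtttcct
CXCL8: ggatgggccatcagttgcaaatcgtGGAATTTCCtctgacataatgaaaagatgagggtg

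The letters GGGAATTTCC were read from the CXCL1 promoter, as its match to the NF-κB consensus, so CXCL1 holds them by construction. Searched on both strands, they were present in CXCL1, CXCL2, CXCL3, CXCL5 and CXCL6 and in 0.157% of the 27305 promoters (43 promoters). These shares describe the run and do not test it. The shorter GGAATTTCC, which lies inside the longer run and was added after CXCL8 had been seen to lack it, was present in all 6 and in 0.428% of promoters (117 promoters). Its first base lay 78, 77 and 78 bases before the start in CXCL1, CXCL2 and CXCL3, 90 and 89 bases before it in CXCL5 and CXCL6, and 91 bases before it in CXCL8. The general NF-κB consensus, which overlaps both runs, was present in the same 5 genes and in CCL20 and in 9.57% of promoters. The AP-1 letters TGANTCA were present only in CXCL8 among the 7, starting 137 bases before the start, and in 6.6% of promoters. TATAAA was present in CXCL8 and CCL20 and in 11.1% of promoters. These matches describe letters and not bound sites. The 6 genes with the shorter run ranged in level from 992 CPM (CXCL8) to 0 CPM (CXCL6), and a relation between letters and level was not tested.

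Of the 10 ligands, 4 rose with CML at an adjusted p under 0.3 (CXCL8, CXCL1, CXCL2 and CCL5) and 0 fell. In the same limma fit, 0.674% of all 17649 genes rose (119 genes), 0.221% fell (39 genes) and 0.895% moved in either direction. At an adjusted p under 0.05, this limma fit called 0 ligands and 0 genes, with 1352 genes, 7.66%, at an unadjusted p under 0.05. In 5 of the 10, the above 4 and CXCL3, every CML library was above every control library, which held for 2.50% of genes. Of the 13047 genes that averaged 1 CPM or more, 0.828% rose, 3.04% had all CML libraries above all controls and 1.30% had them all below, set beside 3, 4 and 0 of the 6 ligands at that level. Among the 6255 genes that averaged 30 CPM or more, where CXCL8, CXCL1, CXCL2 and CXCL3 belong, 1.10% rose and 3.80% had all CML libraries above all controls. The median log2 fold change was 0.13 over the ligands and 0.01 over all genes. The ligands were named with earlier results of these data known, so that these shares are a description and not a test of the family.

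CXCL8 (ENSG00000169429.11, chr4:73740569-73743716) was by far the most abundant ligand. Its level was 872, 913, 892 and 955 CPM in control replicates 1 to 4 and 1033, 1083, 1065 and 1125 CPM in CML replicates 1 to 4. The groups did not overlap, the highest control lying 77.0 CPM under the lowest CML library, and replicate 4 was the highest library of both groups. The mean rose by 18.5%, from 908 ± 35.7 to 1076 ± 38.6 CPM (SD, n = 4 each), which was a log2 fold change of 0.24 ± 0.037 (SE) with a 95% confidence interval of 0.16 to 0.33 and an adjusted p of 0.145. The transcript is a deep measurement, with 14626 to 16766 reads in a control library and 17481 to 20233 reads in a CML library. Counting error alone would give an SD of 0.806% and 0.737% of the mean, against 3.93% and 3.59% observed, so that most of the spread lay between cultures or libraries. Among the 293 genes that averaged 500 CPM or more, CXCL8 had the highest log2 fold change, and among the 6255 genes that averaged 30 CPM or more it was at place 24, CXCL1 at 34, CXCL2 at 118 and CXCL3 at 144.

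CXCL1 (ENSG00000163739.4, chr4:73869393-73871308), which encodes GROα, was 127.7, 133.7, 120.1 and 124.4 CPM in the control libraries and 143.3, 145.3, 152.0 and 149.9 CPM in the CML libraries. Here too the groups were apart, by 9.67 CPM, but the order within them was another: control replicate 2 and CML replicate 3 were the highest. The mean rose by 16.7%, from 126 ± 5.72 to 148 ± 4.00 CPM (SD, n = 4 each), with a log2 fold change of 0.22 ± 0.036 (SE), an interval of 0.14 to 0.31 and an adjusted p of 0.153. Each library held between 1986 and 2716 reads of it.

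CXCL2 (ENSG00000081041.9, chr4:74097040-74099195), which encodes GROβ, was 68.3, 69.1, 65.0 and 68.0 CPM in the control libraries and 77.1, 71.6, 76.5 and 75.4 CPM in the CML libraries. The groups were separated by 2.48 CPM, with CML replicate 2 the lowest of its group. The mean rose by 11.2%, from 67.6 ± 1.82 to 75.1 ± 2.48 CPM (SD, n = 4 each), a log2 fold change of 0.15 ± 0.030 (SE) with an interval of 0.08 to 0.22 and an adjusted p of 0.242. Its SD was 2.69% and 3.29% of the mean, close to the 2.95% and 2.79% that counting alone would give.

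CXCL3 (ENSG00000163734.4, chr4:74036589-74038689), which encodes GROγ, was 35.96, 36.0, 36.4 and 34.7 CPM in the control libraries and 39.5, 39.8, 36.9 and 42.0 CPM in the CML libraries. The groups did not overlap, but CML replicate 3 lay only 0.464 CPM above the highest control. The means were 35.8 ± 0.736 and 39.5 ± 2.10 CPM (SD, n = 4 each), 10.5% apart. The log2 fold change of 0.14 ± 0.039 (SE), with an interval of 0.05 to 0.23, did not pass the threshold (adjusted p = 0.422).

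**Figure D2:**
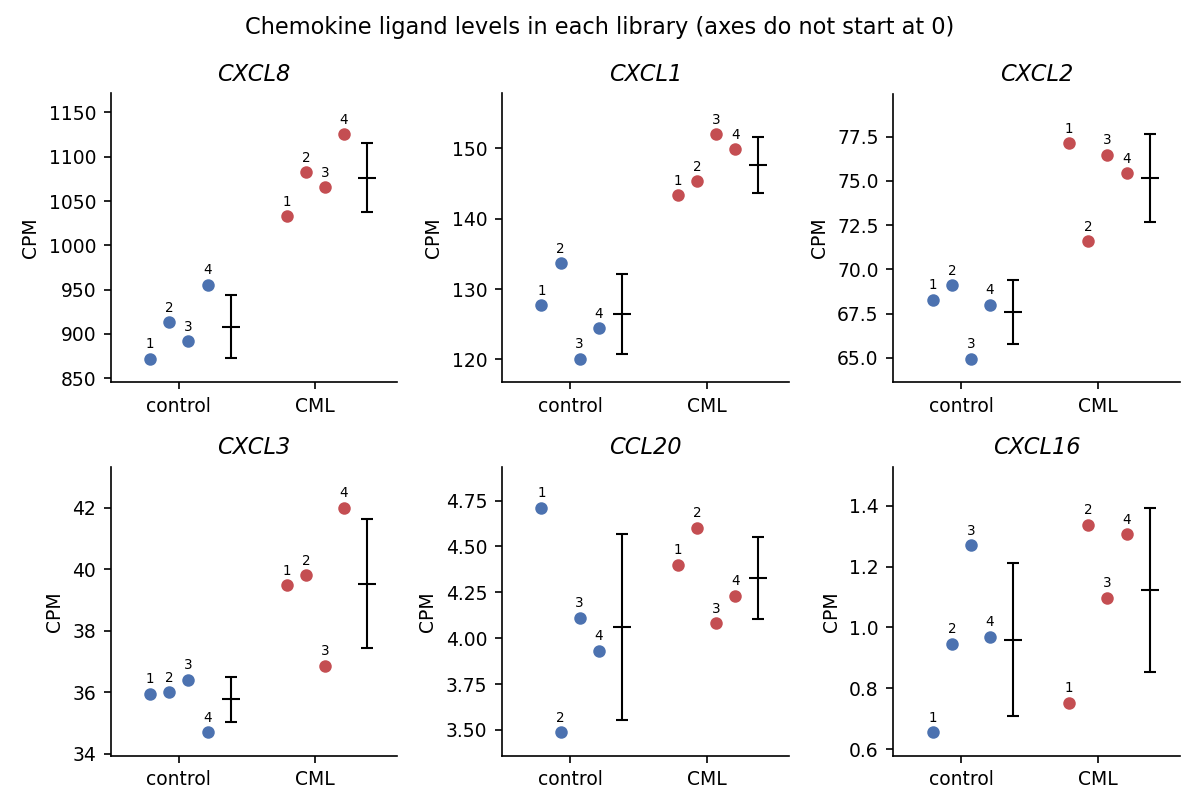
Each point is the level in CPM of 1 library, numbered by replicate, for the 6 ligands that averaged 1 CPM or more, and the bars show the mean and SD of each group (n = 4). The axes do not start at 0. In CXCL8, CXCL1, CXCL2 and CXCL3 the CML points (red) all lie above the control points (blue), whereas in CCL20 and CXCL16 the groups overlap.

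CXCL1, CXCL2 and CXCL3 are close paralogs, and the counting of shared reads is not given in the sources used here. Their values were whole reads within 0.05 in all 8 libraries, which does not tell whether shared reads were dropped or assigned whole. Of the 1125 words of 50 bases in the CXCL1 transcript, 60 (5.33%) also occur in CXCL2 and 6 (0.533%) in CXCL3. Of the 1066 words in CXCL2, 54 (5.07%) occur in CXCL3. How far CXCL2 and CXCL3 differ in fold change (0.15 and 0.14) is uncertain to that extent, while CXCL8 shares no such word with the other ligands.

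CCL5 (ENSG00000271503.6, chr17:35871491-35880360), also known as RANTES, passed the threshold on very few reads. Its level was 0.179, 0.118, 0.181 and 0.114 CPM in the control libraries and 0.289, 0.268, 0.244 and 0.249 CPM in the CML libraries, and the groups did not overlap. These values stand for 2 to 3 reads in a control library and 4 to 5 in a CML library, 10 reads against 18 in all. The ratio of the summed reads, scaled to depth, was 1.78 with a 95% counting interval of 0.780 to 4.32, which holds no change. The limma fit gave a log2 fold change of 0.14 ± 0.025 (SE) and an adjusted p of 0.195, a call that rests on libraries spread less than counting would give (SD 25.0% and 7.89% of the mean, against 63.2% and 47.1%). A fold change on log2(CPM + 1) understates the ratio of a gene at this level. Intervals from reads cover counting error only, because the libraries held no molecular identifiers that the sources used here name.

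The remaining ligands did not pass the test. CCL20 (ENSG00000115009.13, chr2:227813842-227817556) was 4.71, 3.49, 4.11 and 3.93 CPM in the control libraries and 4.40, 4.60, 4.08 and 4.23 CPM in the CML libraries. The groups overlapped, with control replicate 1 the highest of all 8, and the log2 fold change was 0.08 with an interval of −0.11 to 0.27 (adjusted p = 0.911). CXCL16 (ENSG00000161921.15, chr17:4733533-4739928) was 0.656, 0.946, 1.27 and 0.969 CPM in the control libraries and 0.753, 1.34, 1.10 and 1.31 CPM in the CML libraries, with replicate 1 the lowest of both groups. Its log2 fold change was 0.12 with an interval of −0.18 to 0.41 (adjusted p = 0.921), and 65 reads stood against 77. CXCL16 overlaps MED11, a Mediator subunit gene at 10.04 CPM, on the opposite strand. The study names a stranded kit for its tumors, and whether the reads of these libraries were counted by strand is not given in the sources used here, so the value of CXCL16 is uncertain to that extent.

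CCL2 (ENSG00000108691.9, chr17:34255285-34257203) held 21 reads in the controls and 26 with CML, 0.309 ± 0.130 and 0.383 ± 0.229 CPM (SD, n = 4 each), with a counting ratio of 1.23 (0.663 to 2.29) and an adjusted p of 0.988. CXCL5 (ENSG00000163735.7, chr4:73995642-73998677) was the only ligand with a lower mean, at 0.471 ± 0.104 and 0.267 ± 0.113 CPM. Its libraries were 0.596, 0.414, 0.363 and 0.513 CPM in the controls and 0.232, 0.161, 0.427 and 0.249 CPM with CML, so that CML replicate 3 reached into the control range. The 32 and 18 reads gave a ratio of 0.557 (0.294 to 1.02), and the adjusted p was 0.544. CXCL6 (ENSG00000124875.10, chr4:73836678-73838760) was listed at 0 in all 8 libraries. A count of 0 allows up to 3 reads, which is between 0.1605 and 0.1867 CPM in these libraries. The counting intervals of CCL2 and CXCL5 both held a ratio of 1, although the limma interval of CXCL5 (−0.40 to −0.04 on the log2 scale, unadjusted p = 0.0233) lay below 0. CCL5 and CXCL5 each overlap a long noncoding RNA gene on the opposite strand, which was not analysed here. In bulk RNA of this kind, fewer cells with a transcript and less of it per cell cannot be told apart.

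**Figure D3:**
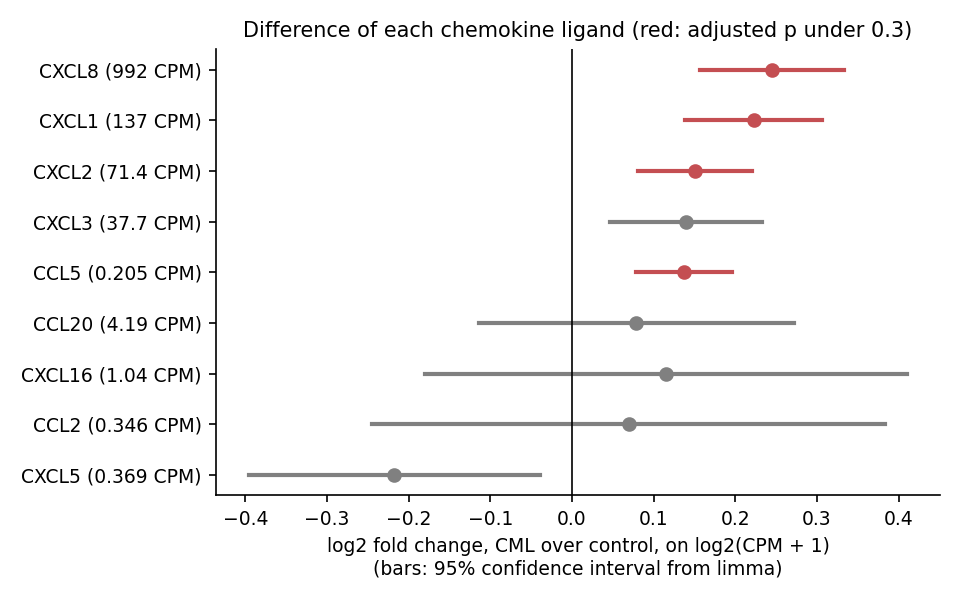
Log2 fold change of 9 ligands on the log2(CPM + 1) scale (CML over control, n = 4 each), with 95% confidence intervals from limma and the mean level beside each name. Red marks an adjusted p under 0.3. The intervals of CXCL8, CXCL1, CXCL2, CXCL3 and CCL5 lie above 0, that of CXCL5 lies below 0, and those of CCL20, CXCL16 and CCL2 span 0. CXCL6, at 0, is not drawn.

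To compare levels between ligands, CPM was divided by the length of the canonical transcript. CXCL8 then stood at 604 CPM per kb over all 8 libraries, CXCL1 at 117, CXCL2 at 64.0, CXCL3 at 35.0 and CCL20 at 5.03 CPM per kb, and each of these steps was larger than the spread between libraries. CCL2 and CXCL16 followed at 0.467 and 0.448 CPM per kb, with overlapping libraries. CCL5 and CXCL5 came last among those detected, at 0.158 and 0.152 CPM per kb. By group mean, CXCL5 was at 0.194 and CCL5 at 0.114 in the controls, against 0.110 and 0.202 with CML. These means rest on 32 and 10 reads in the controls and on 18 reads of each gene with CML. The counting intervals of both genes' ratios held 1, and a change of order was not tested. CXCL8 made up 79.4% ± 0.823 of the summed CPM of the 10 ligands in the controls and 80.0% ± 0.481 with CML (SD, n = 4 each). The sum was 1110, 1158, 1120 and 1188 CPM in the control libraries and 1299, 1346, 1337 and 1399 CPM in the CML libraries.

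**Figure D4:**
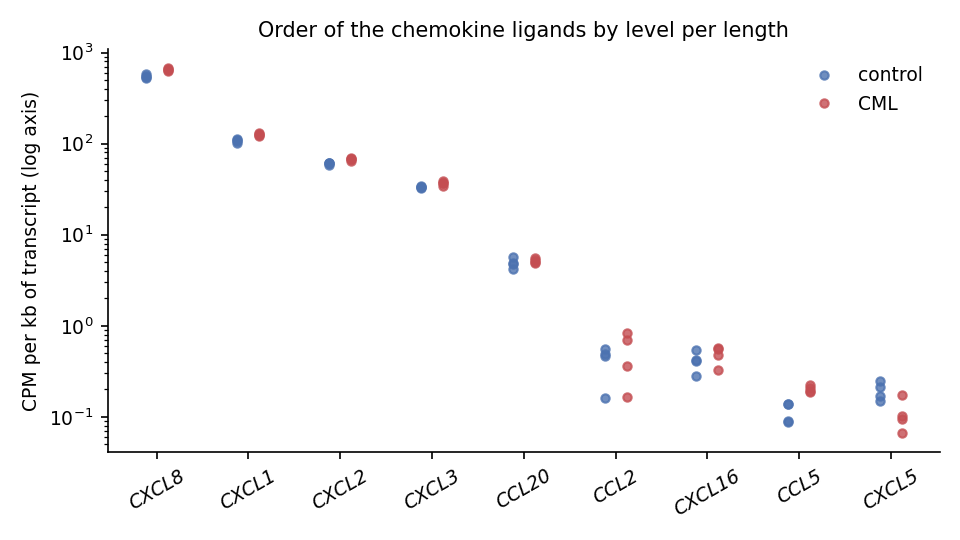
Level of each detected ligand in CPM per kb of transcript, on a log axis, with 1 point per library (control in blue, CML in red, n = 4 each), in order of the mean. CXCL8, CXCL1, CXCL2, CXCL3 and CCL20 form separate steps from 604 down to 5.03 CPM per kb, and the other 4 lie under 1 CPM per kb and overlap in part.

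The proportions among the 4 abundant ligands were compared library by library. The ratio of CXCL8 to CXCL1 in CPM was 7.19 ± 0.430 in the controls and 7.29 ± 0.230 with CML, that of CXCL1 to CXCL2 was 1.87 ± 0.0453 and 1.97 ± 0.0741, and that of CXCL2 to CXCL3 was 1.89 ± 0.0751 and 1.91 ± 0.135 (SD, n = 4 each). All 3 ratios overlapped between the groups.

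For CXCL8, CXCL1, CXCL2 and CCL5, the calls depended on single libraries more than the sizes did. The log2 fold change of CXCL8 was between 0.22 and 0.27 with each library left out in turn, at an adjusted p of 0.107 to 0.420 in limma, and it missed the threshold without control replicate 2, control replicate 3, CML replicate 2 or CML replicate 3. CXCL1 was between 0.20 and 0.25, at 0.1999 to 0.419, and missed it without CML replicate 2, CML replicate 3 or CML replicate 4. CXCL2, between 0.13 and 0.17 at 0.236 to 0.425, passed only without control replicate 4. CCL5, between 0.12 and 0.15 at 0.213 to 0.453, passed without control replicate 1, control replicate 3 or control replicate 4. Without both libraries of replicate 4, limma called 246 of 17649 genes higher and 75 lower. In that fit, the log2 fold change was 0.25 for CXCL8 (adjusted p = 0.170), 0.21 for CXCL1 (0.313), 0.15 for CXCL2 (0.354), 0.10 for CXCL3 (0.465) and 0.13 for CCL5 (0.302), so that CXCL8 alone passed among the ligands. The others were at 0.08 for CCL20 (0.886), 0.08 for CXCL16 (0.949), 0.001389 for CCL2 (1.0) and −0.20 for CXCL5 (0.607). With single libraries left out, CCL20 was between 0.02 (without control replicate 2) and 0.14 (without control replicate 1) and CXCL16 between 0.04 (without control replicate 1) and 0.20 (without CML replicate 1), and neither passed in any of these fits. When GC content and length were regressed out of each library, CXCL8 was at 0.21 ± 0.0186 (SE; adjusted p = 4.058e-06), CXCL1 at 0.22 (0.00108), CXCL2 at 0.14 (0.0445) and CXCL3 at 0.13 (0.214). That fit called far more genes than the main one, 831 of 12928 (531 higher and 300 lower) against 158 of 17649. Without genes averaging under 1 CPM, the fold changes of CXCL8, CXCL1, CXCL2 and CXCL3 were those of the main fit. The adjusted p from limma was then 0.0189 for CXCL8, 0.0356 for CXCL1, 0.290 for CXCL2 and 0.571 for CXCL3. Of the 13047 genes left, limma called 141.

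**Figure D5:**
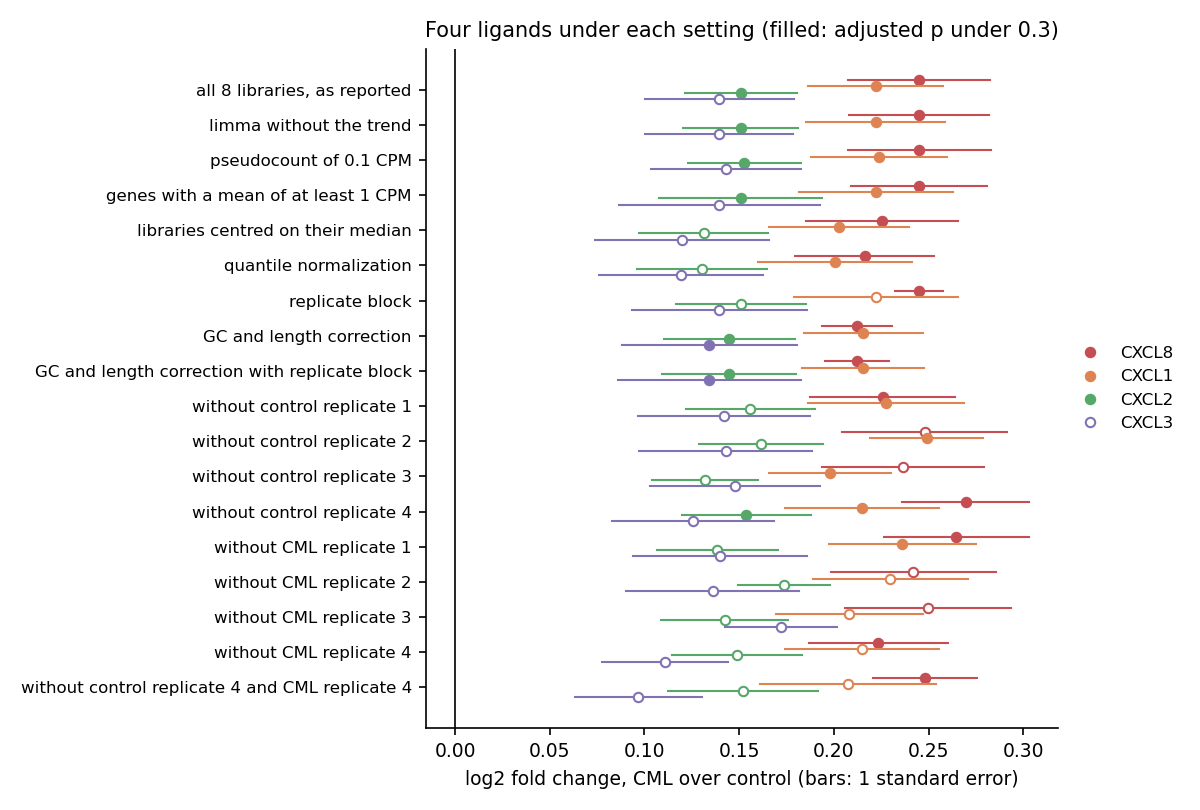
Log2 fold change (CML over control) of CXCL8, CXCL1, CXCL2 and CXCL3, 1 color each, under each way of processing the values, with bars of 1 standard error and filled points where the adjusted p is under 0.3. All points lie between 0.10 and 0.27, to the right of 0, while the filling changes from one setting to the next.

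The genes whose profile over the 8 libraries was nearest to that of CXCL8 were taken from 13046 genes, by the root mean square difference of log2 values around each gene's mean. They were DIAPH3, an actin-nucleating formin (0.0268), SMC4, a condensin subunit (0.0277), CCNB1, the mitotic cyclin B1 (0.0286), BUB1, a spindle checkpoint kinase (0.0287), and TOP2A, the topoisomerase of dividing cells (0.0340). The profile of CXCL8 itself had a root mean square of 0.131. CXCL1 was at place 68 in this order, CXCL2 at 221, CXCL3 at 293, CCL20 at 6101 and CXCL16 at 6843. CCNB1, for example, was 66.4, 65.6, 66.5 and 71.8 CPM in the control libraries and 78.8, 83.3, 81.4 and 84.4 CPM in the CML libraries. Replicate 4 was the highest of each group, as in CXCL8, and the deviation of those libraries fell with GC content. The CXCL8 transcript holds 32.9% GC, against 45.4% in CXCL1, 44.7% in CXCL2 and 44.7% in CXCL3. The distances were not repeated after GC correction, and a part of GC content in them was not tested.

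For CXCL1 the nearest were TCF19, a gene of dividing cells (0.0355), the glycosyltransferase gene B3GNT7 (0.0417), CCN2, the connective tissue growth factor (0.0447), UBE2C, a ubiquitin-conjugating enzyme of mitosis (0.0449), and the sialic acid esterase gene SIAE (0.0475). CXCL2 was at place 10 and CXCL8 at place 31 of the same order, ahead of CXCL3 at 219, CCL20 at 6146 and CXCL16 at 9745. The order is not symmetric: counted from CXCL2, CXCL1 was at place 81, CXCL3 at 549 and CXCL8 at 1181. These distances hold the difference between the groups as well as the differences within them, over 8 libraries that all genes share.

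Of 36 other chemokine ligands listed, 8 were measured, 4 of them at 1 CPM or more on average. Limma called 0 of the 8, and 0 had an unadjusted p under 0.05, counts too small to set apart from the 0.895% and 7.66% of all genes. The median log2 fold change was 0 over the 8, of which 3 were higher and 3 lower. Over the 4 it was 0.09, against 0.01 over all genes at that level. The most abundant was CX3CL1, the membrane-bound fractalkine, at 13.8 ± 0.566 and 14.5 ± 0.550 CPM. CXCL11, induced by interferon, was at 2.11 ± 0.311 and 2.54 ± 0.598 CPM (adjusted p = 0.874), the mucosal CCL28 at 5.58 ± 0.880 and 5.16 ± 0.931 CPM, and CXCL12 and CCL7, named after their values were seen, were listed at 0.

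Of 23 chemokine receptors, 3 were measured, too few to compare with those shares, and 0 passed, also at an unadjusted p under 0.05. The atypical receptor CCRL2 was at 41.9 ± 0.894 and 42.5 ± 1.89 CPM, CXCR4, the receptor of CXCL12, at 3.06 ± 0.254 and 3.21 ± 0.519 CPM, and the scavenging receptor ACKR3, named after its value was seen, was listed at 0. The other receptors on the list, CXCR1 and CXCR2 among them, were not analysed here.

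Among 15 measured proteases and other enzymes that trim or release chemokines, 1 rose and 0 fell, where 0.674% of all genes rose and 0.221% fell. At an unadjusted p under 0.05, which 7.66% of all genes had, 3 were higher and 0 lower. The 3 were PLAT, PLAU and MMP13, the last named after its value was seen. MMP13 was at 0.588 ± 0.138 CPM in the controls and 1.09 ± 0.271 CPM with CML (adjusted p = 0.399). PLAT, the tissue plasminogen activator, rose from 325 ± 13.7 to 367 ± 10.7 CPM (SD, n = 4 each; log2 fold change 0.17, adjusted p = 0.263). PLAU, the urokinase, was at 187 ± 7.80 and 205 ± 4.20 CPM (adjusted p = 0.375), and the collagenase MMP1, the most abundant at a mean of 1210 CPM, at 1239 ± 34.1 and 1181 ± 34.5 CPM (adjusted p = 0.665). Without both libraries of replicate 4, where limma called 246 genes higher and 75 lower, PLAT (log2 fold change 0.16, adjusted p = 0.112) and PLAU (0.16, 0.259) both passed.

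The NF-κB genes did not pass the threshold with all 8 libraries. Of 18 measured subunits, kinases and feedback inhibitors, 15 had a higher and 3 a lower mean with CML, where 9445 of all 17649 genes were higher and 7441 lower. The median log2 fold change was 0.07 against 0.01 over all genes. Limma called 0, and 3 had an unadjusted p under 0.05, which 7.66% of all genes had. NFKBIZ, the nuclear inhibitor IκBζ, was at 62.6 ± 3.47 and 69.1 ± 2.63 CPM (log2 fold change 0.14, adjusted p = 0.489), the deubiquitinase CYLD at 75.5 ± 2.65 and 80.9 ± 3.37 CPM (0.593) and NFKB1, the p105/p50 subunit, at 104 ± 6.96 and 112 ± 1.02 CPM (0.609). TNIP1, an A20-binding inhibitor, was the most abundant at 562 CPM. Without both libraries of replicate 4, limma called 246 of 17649 genes higher and 75 lower. In that fit NFKB2, the p100/p52 subunit, named after its value was seen, passed (log2 fold change 0.09, adjusted p = 0.267), against an adjusted p of 0.762 with all 8.

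Of 14 other transcription factors known at chemokine promoters, 1 rose and 13 did not pass, where 0.895% of all genes did. FOSL2, an AP-1 subunit, rose from 108 ± 1.93 to 115 ± 2.21 CPM (SD, n = 4 each; log2 fold change 0.09, adjusted p = 0.263). At an unadjusted p under 0.05 in limma, which 7.66% of all genes had, 3 were higher (FOSL2, FOSL1 and STAT3) and 1 lower. FOSL1, another AP-1 subunit and the most abundant of these genes, was at 285 ± 8.996 and 301 ± 4.54 CPM (adjusted p = 0.488), and STAT3, which acts downstream of interleukin-6, at 142 ± 5.97 and 152 ± 3.82 CPM (adjusted p = 0.507). CEBPD, a C/EBP factor named after its value was seen, was the lower gene (log2 fold change −0.23, adjusted p = 0.553 with all 8 libraries). Without both libraries of replicate 4, FOSL2 missed the threshold (log2 fold change 0.10, adjusted p = 0.338), and CEBPD passed as lower (−0.33, adjusted p = 0.259). That fit called 246 of 17649 genes higher and 75 lower.

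Of 19 measured cytokines and receptors that induce these ligands, limma called 0, with 2 at an unadjusted p under 0.05 (7.66% of all genes). IL6 was at 63.5 ± 1.39 and 66.2 ± 1.34 CPM (log2 fold change 0.06, adjusted p = 0.550), and the interleukin-1 receptor gene IL1R1 at 8.13 ± 0.855 and 6.82 ± 0.302 CPM (log2 fold change −0.22, adjusted p = 0.553). AGER, which encodes RAGE, the receptor of advanced glycation end products, was at 2.69 ± 0.617 and 2.03 ± 0.0770 CPM (adjusted p = 0.683). IL6ST, the signaling subunit gp130, was the most abundant at 924 CPM.

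Chemokine transcripts are known to be short-lived. Of 9 regulators of their decay, limma called 0, with 2 at an unadjusted p under 0.05 (7.66% of all genes). ELAVL1, the stabilizing protein HuR, was at 96.7 ± 3.95 and 102 ± 1.26 CPM (adjusted p = 0.554), ZC3H12A, the endonuclease regnase-1, at 32.8 ± 2.72 and 37.4 ± 2.64 CPM (adjusted p = 0.620) and the most abundant member, the AU-rich element binding protein gene ZFP36L1, at 323 ± 9.81 and 335 ± 9.002 CPM (adjusted p = 0.762). Without both libraries of replicate 4, limma also called 0 of these regulators, and 0 of the inducing cytokines and receptors, the other ligands and the chemokine receptors, in a fit that called 321 of 17649 genes.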

How the data were processed

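RNA-Seq was performed on 4 control and 4 CML-exposed cultures, grouped by sample title, with dose, time and glucose from the study's methods. The study's methods name a HiSeq instrument for the CML experiment, and the labels name both a HiSeq and a NextSeq. The values deposited by the authors are CPM, 1 column per library, and the submitters' processing notes name edgeR and hg38. The study's methods name Tophat, hg19 and Ensembl annotation for its tumors, and an aligner and annotation for these CML libraries are not given in the sources used here. Which build was used was not resolved, so gene positions are RefSeq's and not the table's. Values fell on steps of 1 read, and 86.2% to 87.2% of them were whole reads within 0.05, so no count test was run. Estimated reads per library set the counting error quoted.

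The 17681 rows were averaged by symbol, and log2(CPM + 1) was compared with limma 3.58.1 in R 4.3.3 (variance trend, no covariates, Benjamini-Hochberg adjustment over 17649 genes, threshold 0.3, with 0.05 beside it). The p-values measure the spread between cultures labelled as replicates. Fold changes understate those of low genes. The fit was repeated with 0.1 CPM as pseudocount, without genes averaging under 1 CPM, and with median centring, quantile normalization, no variance trend, GC and length correction (12928 genes with at least 1 CPM), a replicate block, and each library left out. Leaving out both replicate 4 libraries, in the lists too, was added after seeing the data.

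Members, lists and tests were chosen with earlier results of these data known. Named were all 10 ligands, and in each list the genes under the threshold, the 3 of smallest p averaging 1 CPM or more and the most abundant gene, AGER, and the 5 nearest profiles to CXCL8 and CXCL1. Transcript lengths and strand overlaps come from GENCODE canonical transcripts, and gene positions and promoters from RefSeq (GRCh38.p14). The script was tested on simulated data. Figures used matplotlib 3.10.9 in Python 3.11.15.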

Additional observations from a re-analysis of the deposited data

Results flagged for a closer look

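In 66 groups of 4 libraries (31 named genes and 2 library measures, in controls and CML), the highest or lowest library was set against its neighbors, and 6 stood far from the other 3. Chance gives about 1 in 20 groups, or 3.3 here. Control replicate 4 had 17729518 estimated reads, against 16559914 to 16690410 in the other controls. In the same library PLAT was at 305 CPM, against 331 to 333 CPM. CX3CL1 was at 13.7 CPM in CML replicate 4, against 14.7 to 14.9 CPM. FOSL2 was at 118 CPM in CML replicate 1, against 113.6 to 114.3 CPM. IL1R1 was at 7.28 CPM in CML replicate 2, against 6.66 to 6.70 CPM, and NFKBIZ at 73.1 CPM in CML replicate 3, against 67.6 to 68.1 CPM. None of the 6 was a value of CXCL1, CXCL2, CXCL3, CXCL5, CXCL8, CXCL16, CCL2, CCL5 or CCL20, and CXCL6, at 0, was not examined.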

How the results depend on the processing

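Between 0 and 4 ligands passed the threshold with each library left out in turn (0 without CML replicate 2 or CML replicate 3, 4 without control replicate 4), and between 20 and 690 genes. Libraries centred on their median left 2 ligands (CXCL8 and CXCL1) and 73 genes, and the removal of both replicate 4 libraries left 1 (CXCL8) and 321 genes, of which 107 were among the 158. GC and length correction called 831 of 12928 genes, and 852 with the replicate block. Same-numbered control and CML libraries deviated together with correlations of 0.126, −0.0280, 0.0445 and 0.409, so the numbers were not taken as pairs, although the replicate 4 libraries correlated best of all 16 combinations, and CML replicate 3 correlated best with control replicate 1. With that block, limma called 1 ligand, CXCL8 at 0.24 ± 0.0125 (SE; adjusted p = 0.212), and 189 genes, 82 of them shared. CXCL8, CXCL1, CXCL2, CXCL3 and CCL5 stayed above 0 in all alternatives run on them, and passed in 13 of 17, 12 of 17, 6 of 17, 2 of 17 and 6 of 14. CCL2 ranged from −0.01229 to 0.1651 with a library left out, below 0 without CML replicate 4 and, at −0.00412, without control replicate 1. The cause of these shifts was not tested. Depth limits CCL2, CCL5, CXCL5 and CXCL6, and a minimum mean of 1 CPM left them untested.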
